A study of Mus musculus with 8 samples.

Results

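The actin crosslinkers described here are 9 genes: the spectrin genes Spna2 and Spnb2 (Sptan1 and Sptbn1 in current nomenclature), the alpha-actinin genes Actn1 and Actn4, the filamin gene Flna, the fascin gene Fscn1, the plastin gene Pls3, the LIM-domain gene Lima1 and the drebrin gene Dbn1. They were chosen by symbol from a table of 23038 genes, and all 9 were found in it. The table gives RPKM, reads per kilobase of gene relative to the counted reads of the library, for 8 RNA-seq libraries of CAD cells, a catecholaminergic line from a mouse brain tumour that was grown undifferentiated in 8% fetal bovine serum. There were 4 libraries titled wild-type control, whose genotype label reads "Control KO", and 4 libraries labelled PFN1 KO, in which CRISPR/Cas9 had been aimed at Pfn1 (it encodes profilin 1, which binds actin monomers). What the control cells had received, and whether the 4 biological replicates of a group were separate clones or cultures, is not stated, so the p-values measure the spread between these libraries, which may be technical.

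Actin filaments become stiff, organised structures when other proteins tie them together. Fascin and plastin pack filaments into tight parallel bundles, as in filopodia; alpha-actinin spaces them more widely; filamin joins crossing filaments into a flexible gel; and spectrin tetramers, made of alpha and beta chains, hold short filaments in a lattice under the membrane. In neurons the lattice of alpha II and beta II spectrin lines the axon, fascin is found in growth cone filopodia, and drebrin lies where filaments meet microtubules and in dendritic spines.

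Depth was estimated from the low values of the table at 26200000 to 34500000 reads per library, and 827 to 51122 reads lay behind each value of a crosslinker gene. Pfn1 fell from 423 ± 16.4 to 139 ± 10.8 RPKM (SD, n = 4 each), 32.9% of control, and the libraries of the groups did not overlap. The precursor ribosomal RNA gene Rn45s took 9.15% of the reads in control library 4 and 13.2 to 14.2% in the other controls, and 8.40 to 11.9% in the knockout libraries. The summed RPKM of 10 neuronal and catecholaminergic marker genes was 596 to 628 in control and 848 to 873 in knockout libraries. At a limma adjusted p under 0.05, 5 of 9 tested markers were higher and 2, Th and Dbh, lower. Of all tested genes 30.4% were higher and 15.5% lower. Chgb changed most in RPKM, from 162 ± 20.7 to 347 ± 15.5 (SD, n = 4 each). Chgb, Snap25 (higher) and Dbh lie on chromosome 2, where 68.5% of tested genes were higher. Th had a mean of at least 1 RPKM in control only. The summed markers of glia, fibroblasts, muscle, blood, and epithelium with endothelium reached at most 3.96 RPKM in any library, and Aqp4, Myod1, Myog and Krt18 were listed at 0 throughout. The part of the neuronal marker change in the results below was not tested, and in such bulk samples fewer cells of a type cannot be told apart from less RNA per cell.

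Promoter windows of the genes with the largest rise (Spna2), of its beta chain partner (Spnb2) and with the largest fall (Lima1) are shown because these 3 carry the main differences between the groups. Each window is the RefSeq sequence on GRCm38.p6 from 250 bases before to 50 after an annotated start, 5′ to 3′ on the strand of the gene. Capitals mark GGGCGG, the core of the GC box, on either strand (written CCGCCC on the other), and the CArG box, the motif that serum response factor binds.
Spna2, chr2:29965310-29965609, plus strand: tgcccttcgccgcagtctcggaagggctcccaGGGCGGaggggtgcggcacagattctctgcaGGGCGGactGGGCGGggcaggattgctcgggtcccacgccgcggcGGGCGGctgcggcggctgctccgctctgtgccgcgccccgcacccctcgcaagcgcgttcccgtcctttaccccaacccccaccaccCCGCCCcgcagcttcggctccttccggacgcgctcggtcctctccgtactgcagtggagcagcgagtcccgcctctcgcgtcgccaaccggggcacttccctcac
Spnb2, chr11:30198208-30198507, minus strand: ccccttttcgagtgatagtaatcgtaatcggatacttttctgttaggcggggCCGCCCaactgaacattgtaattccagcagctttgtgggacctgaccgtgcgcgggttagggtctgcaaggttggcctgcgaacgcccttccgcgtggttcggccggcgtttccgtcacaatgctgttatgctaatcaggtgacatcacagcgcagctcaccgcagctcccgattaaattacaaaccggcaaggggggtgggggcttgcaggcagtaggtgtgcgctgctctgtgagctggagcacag
Spnb2, chr11:30219723-30220022, minus strand: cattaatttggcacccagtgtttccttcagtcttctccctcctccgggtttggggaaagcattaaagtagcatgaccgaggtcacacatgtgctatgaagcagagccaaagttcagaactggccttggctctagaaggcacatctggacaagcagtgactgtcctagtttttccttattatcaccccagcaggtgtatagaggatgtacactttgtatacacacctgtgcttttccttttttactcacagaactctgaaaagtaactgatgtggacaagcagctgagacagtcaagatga
Lima1, chr15:99820100-99820399, minus strand: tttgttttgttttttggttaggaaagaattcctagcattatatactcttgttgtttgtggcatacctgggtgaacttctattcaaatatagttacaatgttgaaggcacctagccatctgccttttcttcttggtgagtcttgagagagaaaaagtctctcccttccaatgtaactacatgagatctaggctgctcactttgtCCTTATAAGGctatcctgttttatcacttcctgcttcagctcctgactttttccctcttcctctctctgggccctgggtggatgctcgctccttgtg

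The Spna2 window is rich in G and C (73.3%) and holds 5 GGGCGG matches. The Spnb2 windows hold 1 and 0 matches, at 57.0% and 45.3% G and C, and the Lima1 window holds none, at 42.3%. The Lima1 window holds a CArG box, CCTTATAAGG, with its first base at position -47 from the start. A CArG box lies in 1.63% of all 32851 promoter windows and GGGCGG in 35.7%. Among the 12 windows of the 9 crosslinker genes the Lima1 window is the only one with a CArG box. TATAAA was found in the Fscn1 window alone and CATTCC, the core motif of TEAD factors, in those of Actn4, Flna and Pls3, against 13.6% and 14.7% of all windows. Of 149 tested genes with a CArG box window, 40 (26.8%) were called higher and 33 (22.1%) lower at a limma adjusted p under 0.05, against 30.4% and 15.5% of all 11465 tested genes; the difference between these shares was not tested. A gene's RPKM sums all of its transcripts, so these values do not tell one start from another.

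In control cells the crosslinker genes spanned a 28-fold range of length-normalised level. Fscn1 stood highest, at 289 RPKM and above 99.1% of the tested genes, followed by Flna at 179, Actn1 at 112, Spna2 at 104, Spnb2 at 89.2, Actn4 at 80.2, Dbn1 at 34.1, Lima1 at 16.5 and Pls3 at 10.3 RPKM. No neighbours in this order overlapped in their control libraries. In the knockout libraries Spna2 moved past Actn1 to the place next to Flna, and the ranges of Spna2 and Flna then overlapped (147 to 169.9 and 158 to 172 RPKM), while all other neighbours stayed apart. Pls3, at the low end, lay near the middle of all tested genes, above 49.4% of them in control cells.

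**Figure D1:**
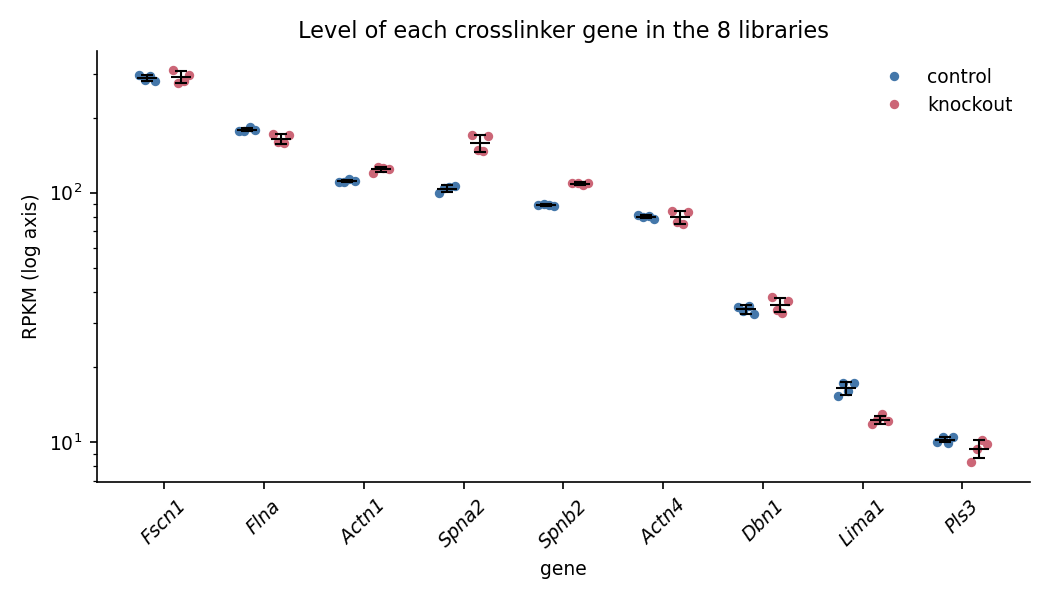
RPKM of the 9 crosslinker genes on a log axis, ordered by control level, with 1 point per library (4 control, blue; 4 knockout, red) and the mean ± SD in black. Spna2 sits at 99.4 to 107 RPKM in control and 147 to 169.9 RPKM in knockout libraries, while the groups of Fscn1, Actn4, Dbn1 and Pls3 overlap.

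The comparison of knockout with control libraries asks which of these transcripts differ once Pfn1 has been targeted. Of the 9 genes, 3 were higher (Spna2, Spnb2 and Actn1) and 2 lower (Lima1 and Flna) in the knockout libraries, and 4 did not pass the test (limma on log2(RPKM + 1), Benjamini-Hochberg adjusted p under 0.05 over the 11465 genes whose mean reached 1 RPKM in a group). All 9 passed that filter. Of all tested genes 45.9% were called, 30.4% higher and 15.5% lower, so 5 of 9 is close to the background share. The median log2 fold change of the 9 genes was 0.01, against 0.06 for all tested genes, and their median absolute change was 0.12 against 0.15. The groups did not overlap for 5 of the 9 genes, against 41.4% of all tested genes. With median-of-ratios scaling the split of all calls was 2747 higher and 2723 lower against 3489 and 1772 as deposited, and that of the crosslinker genes 3 and 3, with Pls3 added.

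Spna2 encodes alpha II spectrin, the alpha chain that pairs with beta chains outside red blood cells. It was at 99.4, 105, 105 and 107 RPKM in control libraries 1 to 4. In knockout libraries 1 to 4 it was at 169.9, 149, 147 and 169 RPKM. Every knockout library lay above every control library, and knockout libraries 1 and 4 lay above 2 and 3. The mean rose 1.52-fold, from 104 ± 3.18 to 158 ± 12.5 RPKM (SD, n = 4 each), with a log2 fold change of 0.60 (SE 0.05, limma adjusted p = 5.77e-06). Spna2 lies on chromosome 2, where the median log2 fold change was 0.26 and 68.5% of 947 tested genes were called higher. The change of Spna2 was above that of 92.4% of these genes, and the part of the chromosome-wide shift in it was not tested.

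Spnb2 encodes beta II spectrin, the main beta chain of the axonal lattice. It varied least of the 9 genes, at 89.5, 89.9, 88.9 and 88.3 RPKM in control libraries 1 to 4, against 109, 109, 107 and 109.8 RPKM in knockout libraries 1 to 4. The groups were far apart relative to their spread, with coefficients of variation of 0.78% and 1.10%. The rise was 1.22-fold, from 89.2 ± 0.70 to 109 ± 1.20 RPKM (SD, n = 4 each; log2 fold change 0.28, SE 0.03, limma adjusted p = 2.04e-05). Spnb2 lies on chromosome 11, whose median log2 fold change was -0.01.

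Because the chains work as partners, their ratio was taken within each library, where library scaling drops out. The Spna2 to Spnb2 ratio was 1.11, 1.16, 1.18 and 1.21 in control libraries 1 to 4, against 1.55, 1.36, 1.37 and 1.54 in knockout libraries 1 to 4. The ratio rose from 1.17 ± 0.04 to 1.46 ± 0.10 (SD, n = 4 each), without overlap, so the alpha chain transcript rose more than the beta chain transcript (difference 0.32 on the log2 scale, exact permutation test, two-sided, p = 0.0286, also 0.0286 adjusted over 3 pairs). This is the smallest p that 4 libraries against 4 can give. A shift of a whole chromosome does not drop out of the ratio. The median log2 fold change was 0.26 on chromosome 2 (Spna2) and -0.01 on chromosome 11 (Spnb2), and its part in the ratio was not tested. Of the other beta chains, Spnb1 (beta I spectrin, first known from red blood cells) rose 1.20-fold, from 10.5 ± 0.66 to 12.6 ± 0.30 RPKM (log2 fold change 0.24, limma adjusted p = 0.00297). Spnb2 made up 88.2 ± 0.61% of the summed RPKM of 4 beta chain genes in control and 88.4 ± 0.16% in knockout libraries. The red-cell alpha chain gene Spna1 was at most 0.00936 RPKM in any library.

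**Figure D2:**
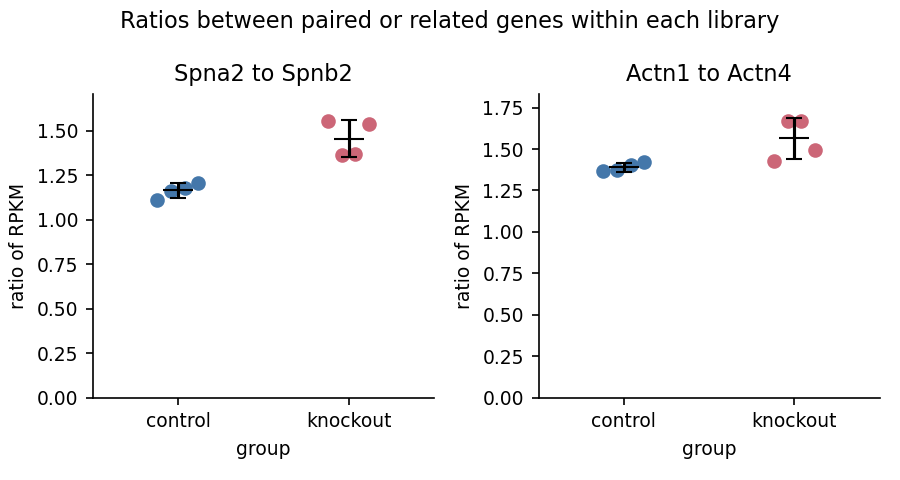
Ratio of RPKM within each library for Spna2 to Spnb2 and Actn1 to Actn4, with 1 point per library, the mean ± SD in black and axes from 0. The groups do not overlap in either panel, and the Actn1 to Actn4 ratio spreads from 1.43 to 1.67 in the knockout libraries.

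Actn1 and Actn4 encode the non-muscle alpha-actinins, antiparallel dimers found along stress fibres and at adhesions. Actn1 was at 111, 110.2, 113 and 112 RPKM in control libraries 1 to 4 and at 120.5, 127, 125 and 124 RPKM in knockout libraries 1 to 4. The groups did not overlap, and the rise was 1.11-fold, from 112 ± 1.35 to 124 ± 2.79 RPKM (SD, n = 4 each; log2 fold change 0.16, SE 0.03, limma adjusted p = 0.00183). With median-of-ratios scaling the log2 fold change of Actn1 was 0.09 (adjusted p = 0.0413), and the median on its chromosome 12 was 0.12 with the values as deposited. Actn4 was at 81.2, 80.3, 80.8 and 78.5 RPKM in control and at 84.2, 76.2, 75.3 and 83.4 RPKM in knockout libraries 1 to 4. The knockout values fell on both sides of the controls. The log2 fold change of Actn4 was -0.01, with a 95% confidence interval of -0.10 to 0.08 (limma adjusted p = 0.872).

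The paralogs shifted relative to each other: the Actn1 to Actn4 ratio was 1.37, 1.37, 1.40 and 1.42 in control libraries 1 to 4, against 1.43, 1.67, 1.67 and 1.49 in knockout libraries 1 to 4. The ratio rose from 1.39 ± 0.03 to 1.56 ± 0.12 (SD, n = 4 each), with knockout library 1 just above control library 4 (exact permutation test, two-sided, p = 0.0286, 0.0286 adjusted over 3 pairs). Without any 1 of the control libraries 1, 2, 3 or 4 the exact permutation p was 0.0571. The muscle paralog Actn2 rose at a low level, from 0.928 ± 0.192 to 1.74 ± 0.10 RPKM (log2 fold change 0.51, limma adjusted p = 0.000356), while Actn3 stayed under the filter, at most 0.289 RPKM. Actn2 itself reached the filter of 1 RPKM only in the knockout group, so the filter favoured a rise. With no filter on low values its limma adjusted p was 0.00139. Actn1 and Actn4 together made up at least 98.97% of the summed RPKM of the 4 genes.

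Flna encodes filamin A, the broadly expressed filamin that links orthogonal filaments and anchors them to membrane proteins. It was at 178, 177, 183 and 179 RPKM in control libraries 1 to 4 and at 172, 159, 158 and 170.3 RPKM in knockout libraries 1 to 4. The groups did not overlap, though knockout library 1 came within 5.07 RPKM of the lowest control. Flna fell to 92.1% of control, from 179 ± 2.64 to 165 ± 7.38 RPKM (SD, n = 4 each; log2 fold change -0.12, SE 0.04, limma adjusted p = 0.0185). The call was lost when control library 3 or knockout library 2 or 3 was left out, with a prior variance that had no trend, and in the authors' deposited table, where the adjusted p was 0.0549. That table calls 4 of the 9 genes, against 44.2% of all genes tested here.

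Of the filamin relatives, Flnc, which encodes the muscle-enriched filamin C and is named here after its values were seen, was at 35.4 ± 2.66 and 40.4 ± 3.40 RPKM with overlapping groups; its adjusted p was 0.0402 (limma), and its call was lost in 11 of 17 alternatives. Of the genes of filamin partners, Filip1, which encodes a filamin-interacting protein, fell from 1.23 ± 0.12 to 0.435 ± 0.045 RPKM, and its relative Filip1l rose from 0.635 ± 0.099 to 1.29 ± 0.15 RPKM (limma adjusted p = 3.14e-05 and 0.000379). Each reached the filter of 1 RPKM only in the group where it was higher, so the filter favoured a difference. With no filter on low values the limma adjusted p was 7.28e-05 for Filip1 and 0.000818 for Filip1l.

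Lima1 encodes EPLIN, a LIM-domain protein that bundles filaments, slows their disassembly and links cadherin adhesions to actin. It was at 15.3, 17.3, 16.1 and 17.3 RPKM in control libraries 1 to 4. In knockout libraries 1 to 4 it was at 11.9, 12.3, 12.9 and 12.2 RPKM. The highest knockout library lay below the lowest control. Lima1 fell to 74.7% of control, from 16.5 ± 0.98 to 12.3 ± 0.45 RPKM (SD, n = 4 each; log2 fold change -0.39, SE 0.05, limma adjusted p = 0.000113), while the median on its chromosome 15 was 0.06. Its promoter window is the one with the CArG box printed above, and any part of that motif in the fall was not tested.

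Fscn1 encodes fascin, the filopodial bundler. It was at 297, 284, 295 and 281 RPKM in control libraries 1 to 4 and at 309, 276, 279.9 and 297 RPKM in knockout libraries 1 to 4. The groups overlapped fully, and the log2 fold change was 0.01, with a 95% confidence interval of -0.08 to 0.09 (limma adjusted p = 0.905). Its paralogs were scarcely counted, since Fscn2 reached at most 0.494 RPKM and Fscn3 0.148 RPKM. Fscn1 thus made up 99.9% of the summed fascin RPKM in control and 99.8% in knockout libraries.

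Dbn1 encodes drebrin, a side-binding protein of neuronal filaments. It was at 35.0, 33.5, 35.3 and 32.6 RPKM in control libraries 1 to 4 and at 38.1, 34.0, 33.0 and 36.7 RPKM in knockout libraries 1 to 4. The groups overlapped, with knockout libraries 1 and 4 above all controls (log2 fold change 0.06, 95% confidence interval -0.06 to 0.17, limma adjusted p = 0.399). Its relative Dbnl, which encodes a drebrin-like adaptor, rose from 54.9 ± 2.66 to 63.2 ± 3.16 RPKM (limma adjusted p = 0.00506), a call lost with median-of-ratios scaling (adjusted p = 0.0825).

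Pls3 encodes plastin 3, a bundler of parallel filaments regulated by calcium. It was at 10.1, 10.5, 9.98 and 10.5 RPKM in control libraries 1 to 4 and at 8.33, 9.37, 10.2 and 9.81 RPKM in knockout libraries 1 to 4. Knockout library 3 overlapped the controls, and knockout library 1 was the lowest. The log2 fold change was -0.11, with a 95% confidence interval of -0.24 to 0.02 (limma adjusted p = 0.142), and Pls3 was called lower with median-of-ratios scaling (-0.17, adjusted p = 0.0199) and with upper-quartile scaling (-0.15, adjusted p = 0.0342). Without knockout library 1 the log2 fold change was -0.06 (limma adjusted p = 0.343). Of the other plastins, Lcp1 reached at most 0.0878 RPKM and Pls1 0.0374 RPKM, so the ratio of Pls3 to Lcp1 was not tested.

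**Figure D3:**
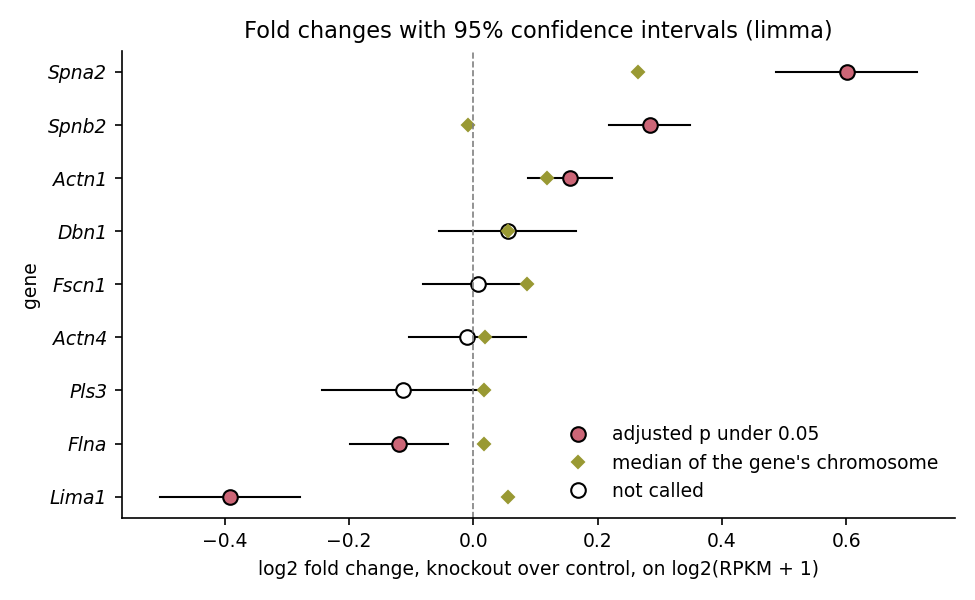
Log2 fold change of each crosslinker gene, knockout over control, on the log2(RPKM + 1) scale, with 95% confidence intervals from limma (8 libraries). Filled circles mark an adjusted p under 0.05, open circles genes that did not pass, and diamonds the median of all tested genes on the same chromosome; Spna2 at 0.60 lies above the 0.26 of chromosome 2, and Lima1 at -0.39 below the 0.06 of chromosome 15.

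The knockout libraries did not vary alike. Knockout libraries 1 and 4 were the highest pair of the 4 in 6 of the 9 genes (Spna2, Spnb2, Actn4, Flna, Fscn1 and Dbn1), and knockout libraries 2 and 3 in Actn1 and Lima1. Over all tested genes libraries 1 and 4 were the highest pair in 25.9% and libraries 2 and 3 in 31.4%. Pfn1 itself was at 152, 130.4, 130.2 and 143 RPKM in knockout libraries 1 to 4, the same order of pairs. Estimated depth was 29000000, 28600000, 33000000 and 30200000 reads and the Rn45s share 11.9, 8.83, 9.10 and 8.40% in knockout libraries 1 to 4. The part of either in the split was not tested. The coefficient of variation was larger in knockout than in control libraries for 8 of the 9 genes, Lima1 being the exception. The median over all tested genes was 6.03% in control and 6.47% in knockout libraries. The share of all tested genes with the larger value in knockout libraries was not counted. Without control library 4 and knockout library 1 together, 3 of the 9 genes were called higher and 2 lower. Over all genes of that fit 4415 were called higher and 1572 lower, against 3489 and 1772 with all 8 libraries.

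**Figure D4:**
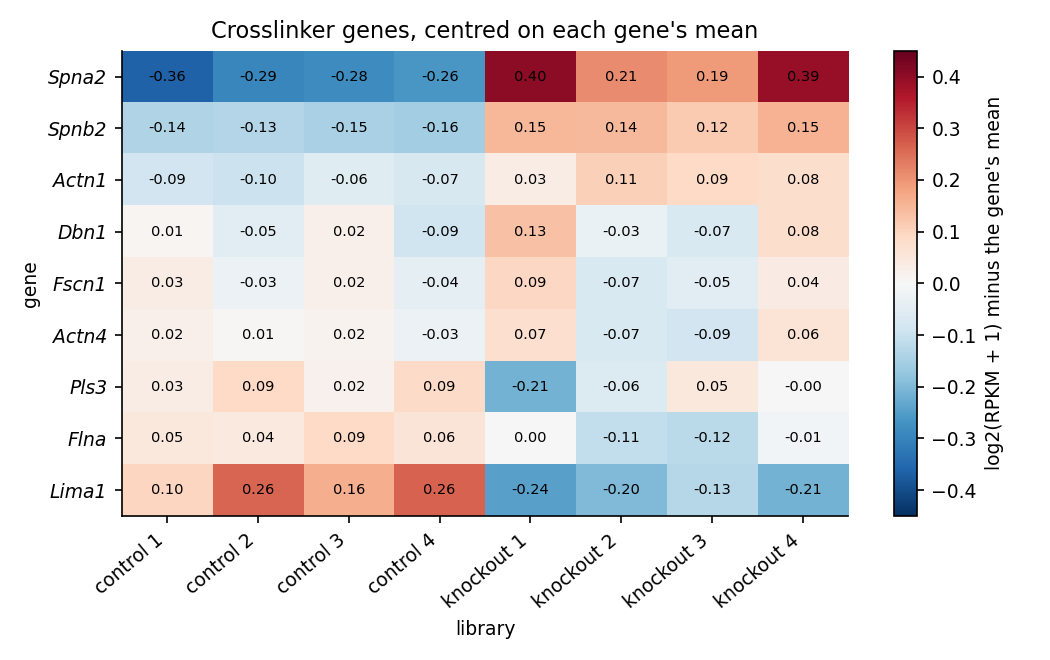
Log2(RPKM + 1) of the 9 crosslinker genes (lines) in the 8 libraries (columns), minus each gene's mean, with red above and blue below it. Spna2 runs from -0.36 in control library 1 to 0.40 in knockout library 1, and Fscn1, Actn4 and Dbn1 are above their mean in knockout libraries 1 and 4 and below it in 2 and 3.

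The genes whose level followed Spna2 most closely over the 8 libraries were Fkbp11 (Pearson r = 0.996), Wwc2 (0.995) and Srxn1 (0.995), on chromosomes 15, 8 and 2. Fkbp11 encodes a peptidyl-prolyl isomerase of the secretory pathway, Wwc2 a member of the KIBRA family and Srxn1 sulfiredoxin. For Lima1 they were Cgrrf1 (0.992), Syt2, a synaptotagmin gene (0.990), and Scml4 (0.989). In all, 1592 tested genes had an r of at least 0.9 with Spna2 and 868 with Lima1, since any gene that differs between the groups correlates with another that does.

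A wider list of 64 genes for filament bundling and crosslinking, spectrins and their partners included the 9 genes. Of these, 63 were in the table and 48 were tested, with 16 higher, 11 lower and 21 not called (median log2 fold change 0.08, against 0.06 for all tested genes). Among those called, Actn2, Filip1 and Filip1l reached the filter of 1 RPKM only in the group where they were higher. With no filter on low values 16 genes of the list were again called higher and 11 lower. Without the 9 genes the counts were 13 higher and 9 lower of 39 tested, so 22 of 39 were called beside the background of 45.9%. With median-of-ratios scaling 13 of the 48 were higher and 14 lower, and with upper-quartile scaling 14 and 13. The genes named next have the largest changes among those called in each role group, at most 3 a group.

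Of 4 tested spectrin genes 3 rose, and these calls stood with both other scalings. Spnb4 was not called (1.04 ± 0.23 and 1.35 ± 0.19 RPKM). Of all tested genes 30.4% were called higher and 15.5% lower. Of 12 tested partners of spectrin, 2 were higher, 1 lower and 9 not called, the ankyrin genes Ank2 and Ank3 among the latter. Epb4.1l1, a neuronal relative of the red-cell membrane protein that joins spectrin to actin, rose from 16.8 ± 0.41 to 23.4 ± 0.89 RPKM (limma adjusted p = 1.01e-05); like Spna2 it lies on chromosome 2. Tmod3, which encodes a tropomodulin that caps filament pointed ends, fell from 52.1 ± 1.83 to 46.5 ± 2.50 RPKM (adjusted p = 0.0135). Add1, which encodes alpha-adducin, a barbed-end cap of the lattice, went from 48.1 ± 1.72 to 52.4 ± 0.74 RPKM (adjusted p = 0.0189). Its call was lost with both other scalings and when control library 1 or 2 or knockout library 3 was left out.

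Of 6 tested LIM-domain crosslinkers 3 fell and 0 rose (15.5% of all tested genes were called lower and 30.4% higher). With Lima1 these were Csrp2, which encodes a cysteine-rich protein of smooth muscle and other cells, from 30.0 ± 0.93 to 21.8 ± 1.47 RPKM, and Ablim1, an actin-binding LIM protein gene, from 15.5 ± 1.05 to 12.6 ± 0.98 RPKM (limma adjusted p = 4.08e-05 and 0.00376). Csrp1 and Ablim3 were among those that did not pass. The other bundlers and crosslinkers split, with 5 higher and 5 lower of 14 tested. Utrn, the gene for the dystrophin relative utrophin, rose from 25.9 ± 0.83 to 35.3 ± 1.60 RPKM. Dst, which encodes the spectrin-repeat linker dystonin, rose from 21.3 ± 1.21 to 28.7 ± 0.92 RPKM, whereas Anln, the gene for the cytokinesis scaffold anillin, fell from 35.7 ± 1.46 to 28.1 ± 1.95 RPKM (limma adjusted p = 1.88e-05, 4.46e-05 and 0.000379).

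**Figure D5:**
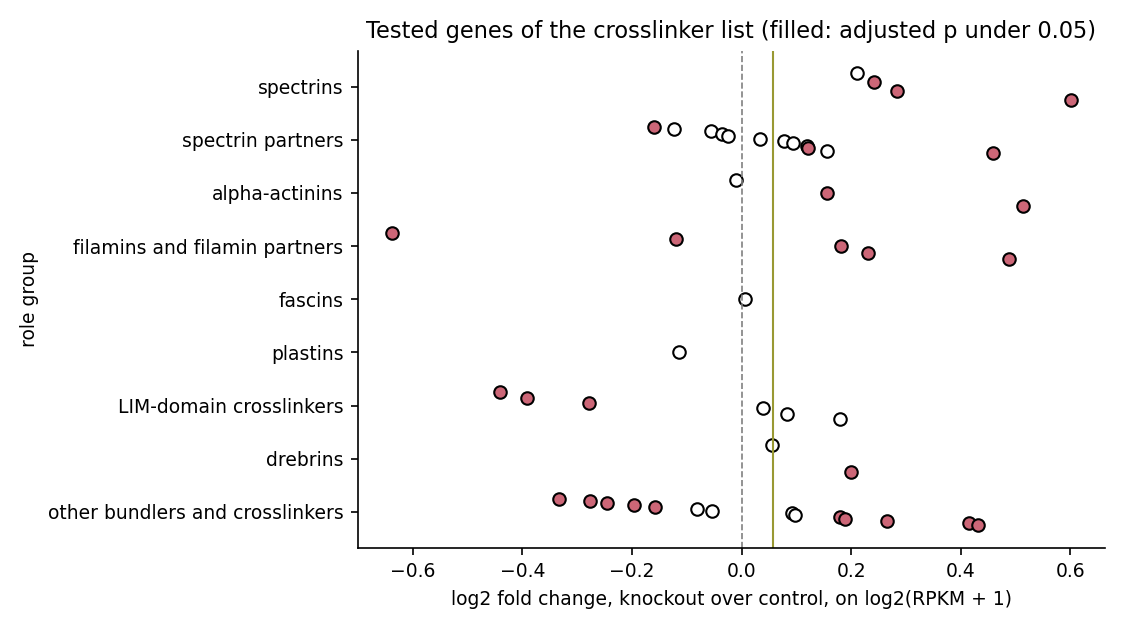
Log2 fold change, knockout over control, of the 48 tested genes of the crosslinker list by role group (limma, 8 libraries), filled where the adjusted p was under 0.05. The dashed line is 0 and the solid line the median of all tested genes, 0.06; the 4 spectrins all lie to the right of it, from 0.21 to 0.60.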

How the data were processed

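Rows of the 9 crosslinker genes were read by symbol from 1 deposited table of RPKM values, made by the authors for each of 8 libraries; total RNA was depleted of ribosomal RNA for stranded libraries, per the labels' protocols. Beside these values the deposited table gives the authors' own p-value, adjusted p-value, log2 fold change and mean log2 CPM. The human build hg19 and the tools edgeR, TopHat, Bowtie, RSEM and CASAVA are listed without roles, per the submitters' processing notes; whether counting used strand, and which genome lay behind the mouse gene numbers, is not given in the sources used here. By gene number 22959 genes matched RefSeq on GRCm38.p6, which gave chromosomes and promoters.

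limma 3.58.1 in R 4.3.3 was fitted on log2(RPKM + 1) with group as the only term, a trended prior variance and Benjamini-Hochberg adjustment over 11465 genes. It was also run on simulated data with far fewer changed genes than were called here, so that run does not measure its accuracy on these data. The limma fold changes understate those of low genes. Other scalings, pseudocounts, filters, a replicate block and left-out libraries were tried. Depth was not stated; it was estimated from the steps between low values and the floor of the authors' log2 CPM, assuming edgeR's usual prior count. The crosslinker genes and lists were chosen with earlier results of these data known. Named genes of the wider list are the called genes with the largest absolute change, at most 3 in a role group; some genes and 1 of the 3 pairs tested are not reported here.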

Additional observations from a re-analysis of the deposited data

How the results depend on the processing

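Of the 5 calls among the 9 crosslinker genes, those of Spna2, Spnb2, Actn1 and Lima1 kept their direction and passed the threshold in all 17 alternatives, with log2 fold changes of 0.54 to 0.64, 0.22 to 0.29, 0.09 to 0.17 and -0.45 to -0.35. Flna was the exception, at -0.18 to -0.10 with an adjusted p of 0.00627 to 0.0576, so 1 of the 9 genes was called lower with a prior variance without trend and in the authors' deposited table, and 1 to 2 with any 1 library left out. Pls3 was called with both other scalings only (adjusted p = 0.0199 to 0.389 over the alternatives). Over all genes 2723 were called lower with median-of-ratios scaling against 1772; the median log2 fold change was then 0.002 instead of 0.06. The Actn1 to Actn4 ratio differed by 0.13 to 0.21 on the log2 scale with any 1 library left out. The replicate block left 5 of the 9 genes, 25 of the list and 5205 of all genes called. Deviations from the group mean in same-numbered libraries correlated at 0.176, 0.0233, -0.192 and -0.0839, and not every library correlated best with its own number. These values cannot settle whether same-numbered libraries were paired. Pls3 rests on the fewest reads, 827 to 1243 per library.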
